A study of Rattus norvegicus with 56 samples.

Results

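Cultured rat hippocampal neurons that had not been handled for stimulation were compared with neurons that had gone through a sham session of repetitive transcranial magnetic stimulation (rTMS). The comparison held 8 of the 56 arrays of the series, namely the 4 titled CTR_0H and the 4 titled SHAM_0H, chosen by those titles alone. All were primary cultures of hippocampi from E18 Sprague-Dawley rat embryos. Untreated cultures (tms "None") had received no session. Sham cultures had been moved to an incubator with extra insulation, with the magnetic coil kept at a distance, and RNA of both groups was collected at 0 h, which for sham was the end of the session. Where the untreated plates stood during that time is not given in the sources used here, so that sham handling here stands for everything that set the plates apart. Each array measured labelled total RNA of 1 culture sample, and the labels do not say whether samples of a group came from separate dissections. The p-values therefore measure only the spread between culture samples of a group. That spread was taken over 55 arrays of the series and not from these 8 alone.

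Neurons in culture transcribe a set of immediate early genes within minutes of synaptic input, growth factor signalling or a change of medium, temperature or position of the dish. The encoded transcription factors, such as those of the FOS and EGR families, are made from transcripts that need no new protein and decay quickly. Other transcripts that respond to handling follow temperature (cold-inducible RNA-binding proteins and heat shock proteins), glucose (the arrestin-domain protein TXNIP) or splicing kinases (the CDC-like kinases). These groups were followed in the sham cultures.

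On all 8 arrays together, 70.4% to 76.8% of noncontrol spots were well above background, no spot was saturated, and levels correlated between 0.966 and 0.988 in every pair. The level of a probe is its log2 signal scaled within the array so that each array averages 0, and a difference is the sham level minus the untreated level on the log2 scale. The arrays came from 4 runs of sample numbers, called series A to D here. Untreated replicates 1 and 2 were of series A and replicates 3 and 4 of series C, whereas sham replicates 1, 2, 3 and 4 were of series B, A, C and D. Deviations from the group means correlated by 0.36 to 0.50 between an untreated and a sham array of the same series, and by −0.49 to 0.16 between arrays of different series. Differences are therefore given within series and time unless stated otherwise. Only series A and C hold both groups, with 1 sham and 2 untreated arrays each, but the other arrays of 0 h also enter this fit through its series terms, so a fitted difference is not the mean of those within series A and within series C. The spread was taken from all 55 arrays with a well-placed grid. The slides were largely those of the series: slide 1 held untreated replicates 1 and 2 with sham replicates 2 and 4, slide 5 held untreated replicates 3 and 4 with sham replicate 3, and slide 3 held sham replicate 1.

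Few transcripts differed. Of 35699 probes, limma found 63 past a Benjamini-Hochberg adjusted p of 0.05 (0.176%), with 14 higher in sham (0.0392%) and 49 lower (0.137%), while 2551 had an unadjusted p under 0.05 (7.15%). Without the series in the model, 1 probe passed (0.0028%) and 868 had an unadjusted p under 0.05 (2.43%). That probe, A_44_P1131939, has no gene symbol here. It had levels of 0.22, 0.10, −0.27 and −0.64 in untreated cultures and −2.26, −1.70, −1.97 and −2.32 in sham. The count of 63 rested on few arrays. It was 22 without untreated replicate 1, 28 without untreated replicate 2, 23 without untreated replicate 3, 17 without sham replicate 2 and 13 without sham replicate 3. It was between 58 and 81 without each of the other 3 arrays. It also rested on the model, since 22 probes passed with the slide added as a block, 2 with the series as an additive term, 9 when only arrays of 0 h were fitted, and 0 (1927 at an unadjusted p under 0.05) when only the 6 arrays of series A and C were fitted with the series as a block.

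The 63 probes covered 19 genes with a symbol, and 12 of the probes were designed for RefSeq noncoding transcripts, against 12.3% of all probes tested. Their differences were between 0.48 and 2.69 in size with a median of 0.90. In 51 of them the signal was well above background on all 8 arrays. In 30 the ranges of both groups did not overlap, which held for 2.01% of all probes tested. This is a description, since the same 8 arrays entered the fit that chose the 63. Of the 30, 28 were lower in sham (1.23% of all probes had no overlap and were lower) and 2 higher (0.784%). With 1 probe per gene, taken as the probe of the highest mean level, 15 of 13889 genes passed (0.108%).

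The genes lower in sham included enzymes and zinc-finger proteins. Hsd17b1 encodes the hydroxysteroid dehydrogenase that makes oestradiol from oestrone. Its levels were 2.11, 2.05, 1.63 and 1.67 in untreated cultures and 0.68, 0.62, 0.81 and 1.20 in sham, so that every sham array lay below every untreated array. The difference was −1.07 ± 0.21 (SE, adjusted p = 0.027, limma). Cel, which encodes the bile salt-dependent carboxyl ester lipase, had levels of 0.52, 0.24, −0.42 and −0.49 in untreated cultures and −1.05, −1.10, −1.50 and −1.89 in sham. Its groups did not overlap either, and the difference was −1.16 ± 0.23 (adjusted p = 0.030).

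Zfp458 had levels of 0.08, 0.12, 0.23 and −0.09 in untreated cultures and −0.32, −1.27, −0.79 and −0.92 in sham (difference −0.95 ± 0.16, adjusted p = 0.0052). Zfp112 had levels of 1.09, 1.12, 1.03 and 1.31 in untreated cultures and 0.31, 0.30, 0.22 and 0.73 in sham (difference −0.73 ± 0.14, adjusted p = 0.023). Both encode zinc-finger proteins, and in neither did the groups overlap. Zfp54 was also lower in sham (adjusted p = 0.034), but its probe was well above background on only 1 of 4 sham arrays, so the size was not measured. The fitted difference was −1.30, and −0.34 with the normexp background correction. Zbed5, a zinc-finger gene derived from a transposon, fell by 0.82 ± 0.17 (adjusted p = 0.029). Since these genes stood out, the 187 genes with a Zfp or Znf symbol were counted after their values were seen. Of these, 63 had a difference above 0 and 124 below 0, and 3 were higher and 23 lower at an unadjusted p under 0.05, against 355 higher (2.56%) and 567 lower (4.08%) of all genes. The median difference of the 187 was −0.06. It was −0.26 within series A and 0.01 within series C.

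Cd46 encodes a complement regulatory membrane protein. It had levels of 2.23, 2.01, 2.03 and 1.80 in untreated cultures and 1.13, 1.42, 0.93 and 1.51 in sham (difference −0.78 ± 0.14, adjusted p = 0.020). Dimmer Cd46 probes differed by −0.37 (adjusted p = 0.85, limma) and −0.49 (adjusted p = 0.72) and did not pass. Cfap141, a gene of cilia and flagella, fell by 0.78 ± 0.16 (adjusted p = 0.029) and had no overlap between groups. Mettl7a encodes a methyltransferase-like protein of the endoplasmic reticulum and lipid droplets. It was at 4.84 and 4.77 in the untreated and 3.69 in the sham culture of series A, and at 5.97 and 5.83 in the untreated and 5.40 in the sham culture of series C. The groups overlapped, and the difference within series was −0.78 ± 0.13 (adjusted p = 0.0061). Galnt3, which encodes an enzyme that starts mucin-type O-glycosylation, fell by 0.63 ± 0.13 (adjusted p = 0.035).

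For 4 further genes a probe passed that was not the one of the highest level, so the gene is less certain. The probe of Slitrk3, which encodes a synaptic adhesion protein, fell by 0.95 (adjusted p = 0.030), whereas the brighter Slitrk3 probe differed by −0.16 (adjusted p = 0.95). The probe of Kbtbd3 fell by 0.68 (adjusted p = 0.030) and the brighter one differed by −0.22 (adjusted p = 0.89). For C1h15orf40 the passing probe fell by 0.56 (adjusted p = 0.029), and the brightest of its other 3 probes differed by −0.23 (adjusted p = 0.77). The probe of Creb5, a gene of the CREB family of transcription factors, was 1.36 higher in sham (adjusted p = 0.029), but the brightest Creb5 probe differed by 0.26 (adjusted p = 0.80). Six4, a homeobox gene with 1 tested probe, was well above background in 3 of 4 untreated and in 0 of 4 sham cultures. The sham level was at least 2.31-fold lower (adjusted p = 0.023, limma within series). For this bound the dim group is set to the lowest signal that counts as above background on each array. Where its own signal is higher, that is used. The bound takes plain group means without the series and holds for the scaling within arrays only.

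Genes higher in sham that passed were few and mostly dim. Fam181a had levels of 1.76, 1.90, 1.09 and 0.90 in untreated cultures and 2.58, 2.36, 1.83 and 2.05 in sham. The groups overlapped slightly, since sham of series C was below the highest untreated array of series A, and the difference within series was 0.71 ± 0.12 (adjusted p = 0.010). Nhlrc2, named for its NHL repeats, was 0.60 ± 0.11 higher within series (adjusted p = 0.022), but differed by 0.12 without the series. The olfactory receptor genes Or10h1d and Or7d10 were well above background in 0 of 4 untreated and in 2 of 4 sham cultures each. They were at least 1.19-fold and 1.62-fold higher in sham by the same bound (adjusted p = 0.022 and 0.034). With normexp their log2 differences within series were 0.48 and 0.44. Tnik (difference 0.52 ± 0.12, adjusted p = 0.069) and Casp2 (0.42 ± 0.10, adjusted p = 0.090) came next by p-value and did not pass.

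**Figure D1:**
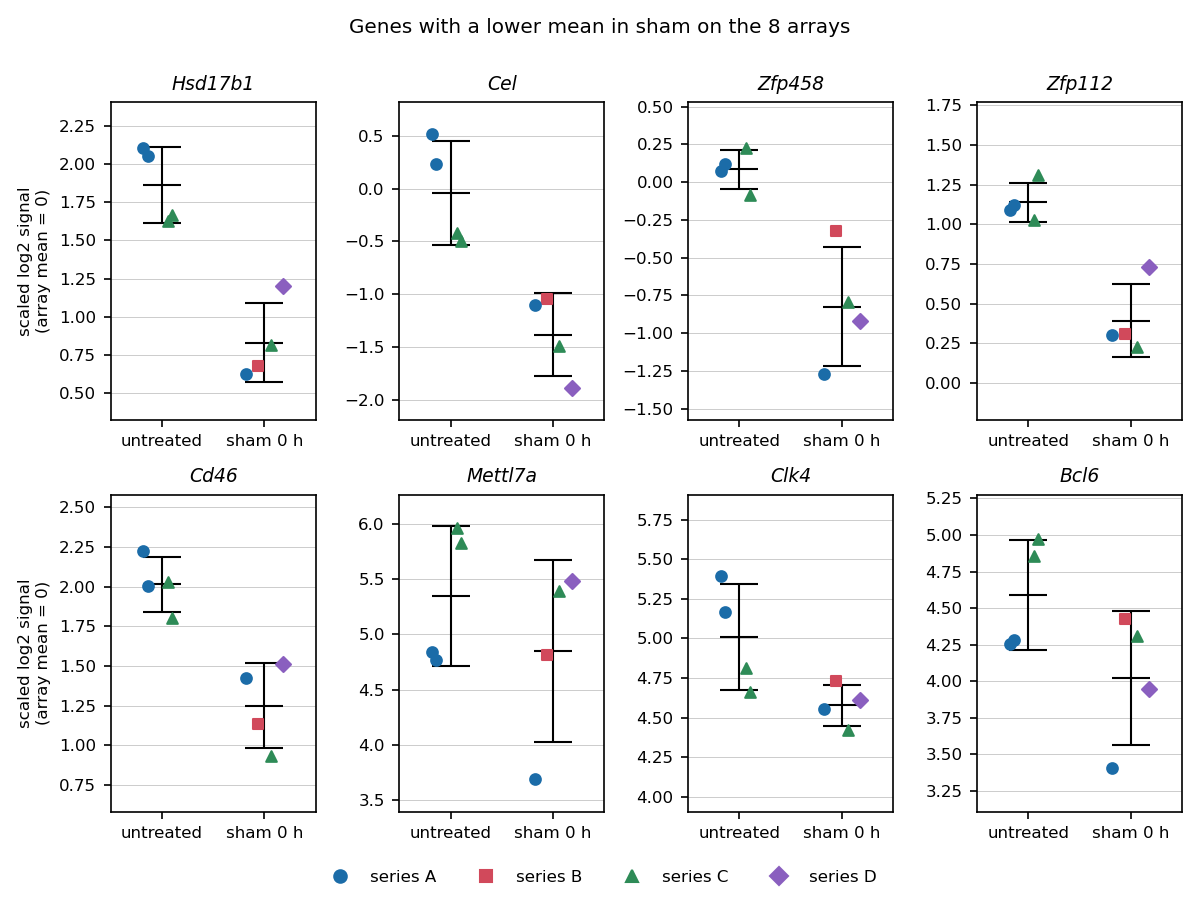
Levels of 8 genes with a lower mean in sham (scaled log2 signal, vertical axis) in untreated and sham 0 h cultures, with 1 point per array, symbols for the series and bars for mean ± SD of 4 arrays. Hsd17b1, Cel, Zfp458, Zfp112 and Cd46 do not overlap between groups. Mettl7a, Clk4 and Bcl6 overlap, and Clk4 and Bcl6 did not pass the test.

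Most activity-regulated transcription factors had a difference above 0 within series, but no member passed. The mean level of the list per array was 1.52 to 3.30 in untreated and 2.10 to 3.55 in sham cultures, so the groups overlapped. Of 25 tested, 21 had a difference above 0 (84.0%), against 50.6% of all genes, and 18 (72.0%) were higher in sham both within series A and within series C, against 25.1% of all genes. The median difference was 0.20, and 0.00 over all genes. Without the series in the model it was 0.53, and −0.02 over all genes. At an unadjusted p under 0.05, 4 of 25 were higher (against 2.56% of all genes) and 0 lower (against 4.08%). The groups did not overlap in 2 of the 25, which held for 261 of all 13889 genes. Egr1, a zinc-finger transcription factor made early after synaptic activity, had levels of 1.60, 2.18, 1.52 and 1.49 in untreated cultures. The sham cultures stood at 4.16, 3.28, 3.05 and 3.62, above every untreated array. The difference was 1.30 ± 0.33 within series, which is 2.47-fold, and the adjusted p was 0.14. The difference was 1.39 within series A, 1.54 within series C and 1.83 without the series.

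Egr3, a related factor, was well above background in 0 of 4 untreated and in 4 of 4 sham cultures. By the bound given above, without the series, its level in sham was at least 2.03-fold higher (adjusted p = 0.44 within series). With normexp its log2 difference within series was 0.16. Fos, which encodes a subunit of the AP-1 transcription factor, was at 2.25 and 1.60 in untreated cultures of series A and at −0.66 and −1.53 in those of series C. The sham cultures of these series were at 2.32 and 0.74, and those of series B and D at 2.75 and 1.84. The groups overlapped, and the difference was 0.79 ± 0.31 (adjusted p = 0.50). Nr4a2, an orphan nuclear receptor gene, had a difference of 0.47 ± 0.21 (adjusted p = 0.64), and its second probe gave 0.43. Npas4, which is specific to neurons and responds to calcium entry, was well above background in 2 of 4 untreated and 3 of 4 sham cultures (difference 0.70 ± 0.58, adjusted p = 0.92).

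Among the activity-regulated effectors, 17 of the 23 tested had a difference above 0 (73.9%, against 50.6% of all genes). At an unadjusted p under 0.05, 3 of 23 were higher (against 2.56% of all genes) and 0 lower (against 4.08%). In 1 of the 23 the groups did not overlap, against 261 of all 13889 genes. Dusp1, which encodes a phosphatase that switches off MAP kinases, had levels of −0.33, −0.43, −0.90 and −1.23 in untreated cultures and 0.07, −0.01, −0.26 and 1.15 in sham. The groups did not overlap, and the difference was 0.62 ± 0.20 (adjusted p = 0.31), but 0.15 with normexp and 0.96 without the series. Per1, a clock gene that also responds to cyclic AMP, had a difference of 0.46 ± 0.13 (adjusted p = 0.23), and Plk3, a polo-like kinase gene, one of 0.46 ± 0.21 (adjusted p = 0.63). Arc, which encodes a regulator of glutamate receptors at the synapse, was at 4.56 and 4.58 in untreated and 4.63 in sham of series A, and at 2.10 and 1.54 in untreated and 2.59 in sham of series C, a gap between series that exceeded that between groups. Its difference was 0.26 ± 0.23 (adjusted p = 0.93). The neuropeptide precursor gene Vgf had a difference of 0.27 ± 0.14 (adjusted p = 0.73). In the list of MAP kinase feedback regulators, 11 of 14 had a difference above 0 (78.6%, against 50.6% of all genes). At an unadjusted p under 0.05, 3 were higher (21.4%, against 2.56%) and 1 lower (7.14%, against 4.08%). Dusp1 is in this list and in the effectors and is 1 of the higher genes in each, so these lists are not independent. The phosphatase gene Dusp5 had a difference of 0.50 ± 0.13 (adjusted p = 0.17) and Dusp6 one of 0.35 ± 0.14 (adjusted p = 0.53). Errfi1, an inhibitor of the EGF receptor, had −0.34 ± 0.11 (adjusted p = 0.35).

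**Figure D2:**
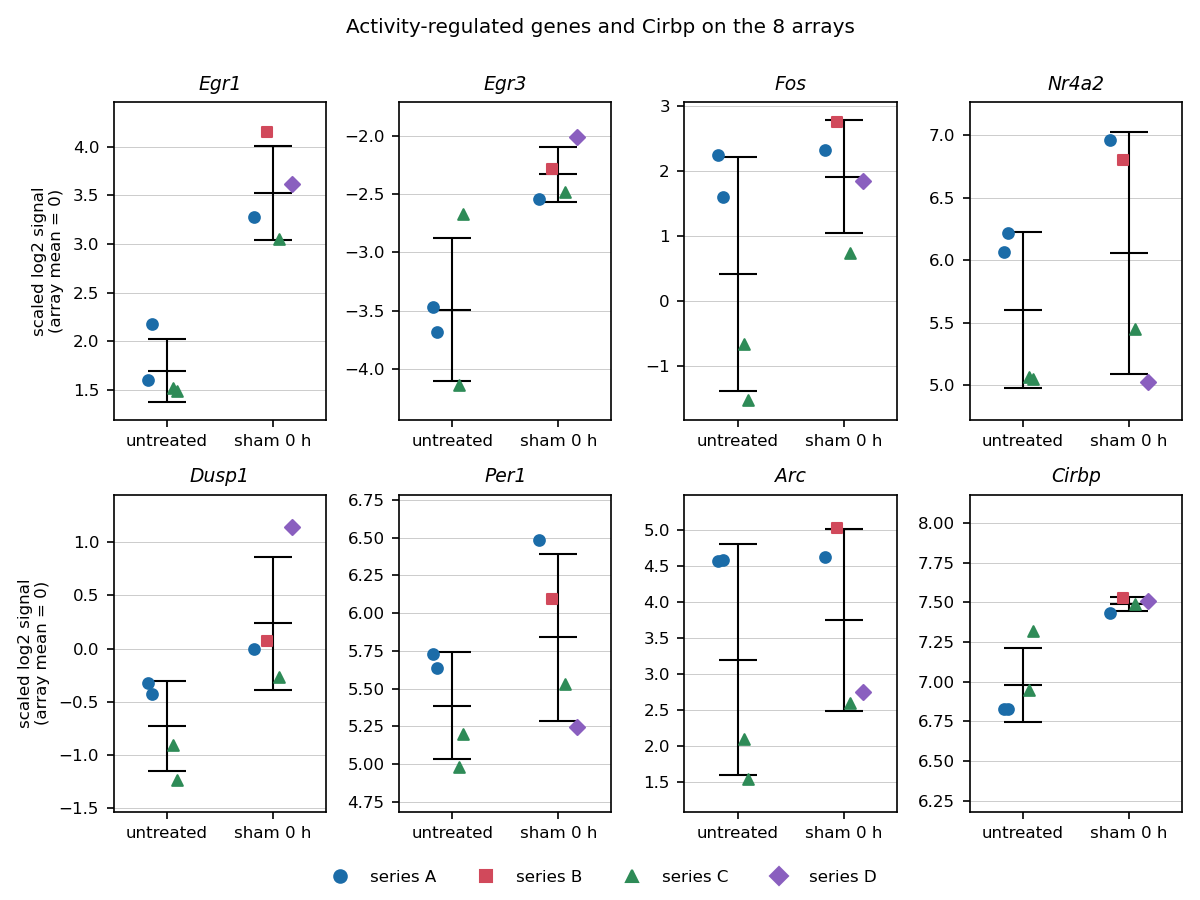
Levels of 7 activity-regulated genes and of Cirbp (scaled log2 signal, vertical axis) in untreated and sham 0 h cultures, with 1 point per array, symbols for the series and bars for mean ± SD of 4 arrays. Sham and untreated arrays do not overlap for Egr1, Egr3, Dusp1 and Cirbp, whereas Fos, Nr4a2, Per1 and Arc overlap. Over all genes, 261 of 13889 had no overlap, and the genes shown were chosen with earlier results of these data known. None of the 8 genes passed the adjusted test.

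Many activity-regulated genes carry a cyclic AMP response element (CRE) near the start site, to which CREB proteins bind. The CRE letters TGACGTCA, which read the same on both strands, were searched in RefSeq promoter windows of 300 bases (250 before and 50 after the start, build GRCr8). They occur in 4 of the 18 activity-regulated transcription factors with a window (22.2%) and in 6 of 18 effectors (33.3%). They occur in 1 of 14 MAP kinase feedback regulators (7.14%, Dusp1 again) and in 2.00% of all 27457 symbols with a window. The 4 transcription factors are Crem, Ier2, Jund and Maff, so Egr1, Egr3, Fos, Nr4a2 and Npas4 are not among them. The 6 effectors are Arl4d, Btg2, Dusp1, Plk2, Scg2 and Vgf. The windows of Dusp1 and Vgf are shown because both genes are described above, with the CRE in capitals. The letters are a description of these windows and do not show what is bound there.
Dusp1 promoter, chr10:17184603-17184902, plus strand: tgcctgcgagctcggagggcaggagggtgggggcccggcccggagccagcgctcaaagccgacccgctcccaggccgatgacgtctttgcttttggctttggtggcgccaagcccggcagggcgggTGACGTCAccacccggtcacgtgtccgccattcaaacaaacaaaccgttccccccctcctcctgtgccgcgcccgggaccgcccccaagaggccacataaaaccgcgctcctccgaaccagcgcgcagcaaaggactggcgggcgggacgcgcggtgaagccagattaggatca
Vgf promoter, chr12:25276971-25277270, minus strand: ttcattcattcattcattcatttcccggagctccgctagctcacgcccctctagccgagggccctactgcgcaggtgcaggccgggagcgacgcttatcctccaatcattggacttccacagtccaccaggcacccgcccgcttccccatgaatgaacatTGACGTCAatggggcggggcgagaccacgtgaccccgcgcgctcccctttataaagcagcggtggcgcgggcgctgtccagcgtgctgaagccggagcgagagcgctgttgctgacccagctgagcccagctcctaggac

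The cold-inducible RNA-binding proteins Cirbp and Rbm3 had unlike values, and neither passed. Cirbp, which mild cooling raises, had levels of 6.83, 6.83, 6.95 and 7.32 in untreated cultures and 7.53, 7.43, 7.49 and 7.51 in sham, with no overlap. The difference was 0.45 ± 0.14 within series (adjusted p = 0.31), and a second, dimmer Cirbp probe gave −0.13. Rbm3, which mild cooling also raises, was at 8.34, 8.52, 7.88 and 8.28 in untreated cultures and 8.70, 8.33, 8.18 and 8.01 in sham (difference 0.02 ± 0.16). Of the cytosolic heat shock proteins, which high temperature and misfolded proteins raise, 8 of 23 had a difference above 0 and the median was −0.05. Hspa1a, the inducible chaperone of this list, had a difference of −0.16 ± 0.15, and Hspa1b and Dnajb1 were not among the genes tested. Chordc1, a cochaperone gene, had levels of 5.87, 5.92, 5.67 and 5.71 in untreated cultures and 5.39, 5.42, 5.37 and 5.19 in sham. This was the 1 member of 23 with no overlap between groups, which held for 261 of all 13889 genes. Its difference was −0.48 ± 0.13 (adjusted p = 0.19).

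The list of CDC-like kinases and of the SR proteins of the splicing machinery, which they phosphorylate, had more values below 0 than above. No member passed. Of 18 kinases and SR proteins tested, 5 had a difference above 0 (27.8%, against 50.6% of all genes), and 3 were lower at an unadjusted p under 0.05 (16.7%, against 4.08%). In both series 0 were higher (against 25.1% of all genes) and 5 lower (27.8%, near the 21.2% of all genes). Clk4 had levels of 5.39, 5.17, 4.81 and 4.66 in untreated cultures and 4.73, 4.56, 4.42 and 4.61 in sham (difference −0.49 ± 0.11, adjusted p = 0.067). Clk1 had a difference of −0.59 ± 0.19 (adjusted p = 0.30) and Tra2a, a splicing regulator, one of −0.41 ± 0.14 (adjusted p = 0.41). The median of the list was −0.06. It was −0.21 within series A and 0.00 within series C.

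Genes that report on glucose and FoxO signalling had mixed values. Txnip, a glucose-responsive inhibitor of thioredoxin and glucose uptake, was at 2.37 and 1.89 in untreated and 1.97 in sham of series A, and at 5.05 and 5.18 in untreated and 3.49 in sham of series C. The difference was −0.74 ± 0.23 (adjusted p = 0.26), with −1.63 within series C and −0.16 within series A. Among the glucocorticoid and FoxO targets, 7 of 20 had a difference above 0 (35.0%, against 50.6% of all genes), with 1 higher (against 2.56% of all genes) and 3 lower (15.0%, against 4.08%) at an unadjusted p under 0.05. Bcl6, which encodes a transcriptional repressor, had levels of 4.26, 4.28, 4.86 and 4.97 in untreated cultures and 4.42, 3.41, 4.31 and 3.94 in sham (difference −0.62 ± 0.14, adjusted p = 0.070). Ccng2, a cyclin gene induced by FoxO factors, had −0.49 ± 0.11 (adjusted p = 0.067). Nfkbia, which encodes the inhibitor of NF-kappaB, had a difference of 0.37 ± 0.14 (adjusted p = 0.45) with no overlap between groups. No overlap held for 2 of the 20 glucocorticoid and FoxO targets and for 261 of all 13889 genes.

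The other lists held no member that passed. Of 22 genes of the endoplasmic reticulum and integrated stress responses, 12 had a difference above 0 (54.5%, near the 50.6% of all genes), and 1 was higher (4.55%, against 2.56%) and 4 lower (18.2%, against 4.08%) at an unadjusted p under 0.05, the latter including Hspa5, the chaperone BiP (−0.31 ± 0.12), and Creld2 (−0.37 ± 0.16). Of 18 clock genes 12 were above 0, including Nr1d1, a repressor of the clock (0.61 ± 0.25, adjusted p = 0.57). Of 21 cholesterol genes 15 were above 0, including Lss, which encodes lanosterol synthase (0.39 ± 0.12, adjusted p = 0.28). The median was 0.00 for 39 oxidative phosphorylation genes, −0.06 for 21 hypoxia-responsive genes and −0.05 for 16 genes of the oxidative stress list, and 0 members of these lists had an unadjusted p under 0.05. Of 21 inflammatory genes 5 were above 0, with 8 of the 21 not well above background on all 8 arrays. Glutamate receptor subunits were above 0 in 17 of 22 (median 0.11) and GABA receptor subunits in 6 of 15 (median −0.03).

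**Figure D3:**
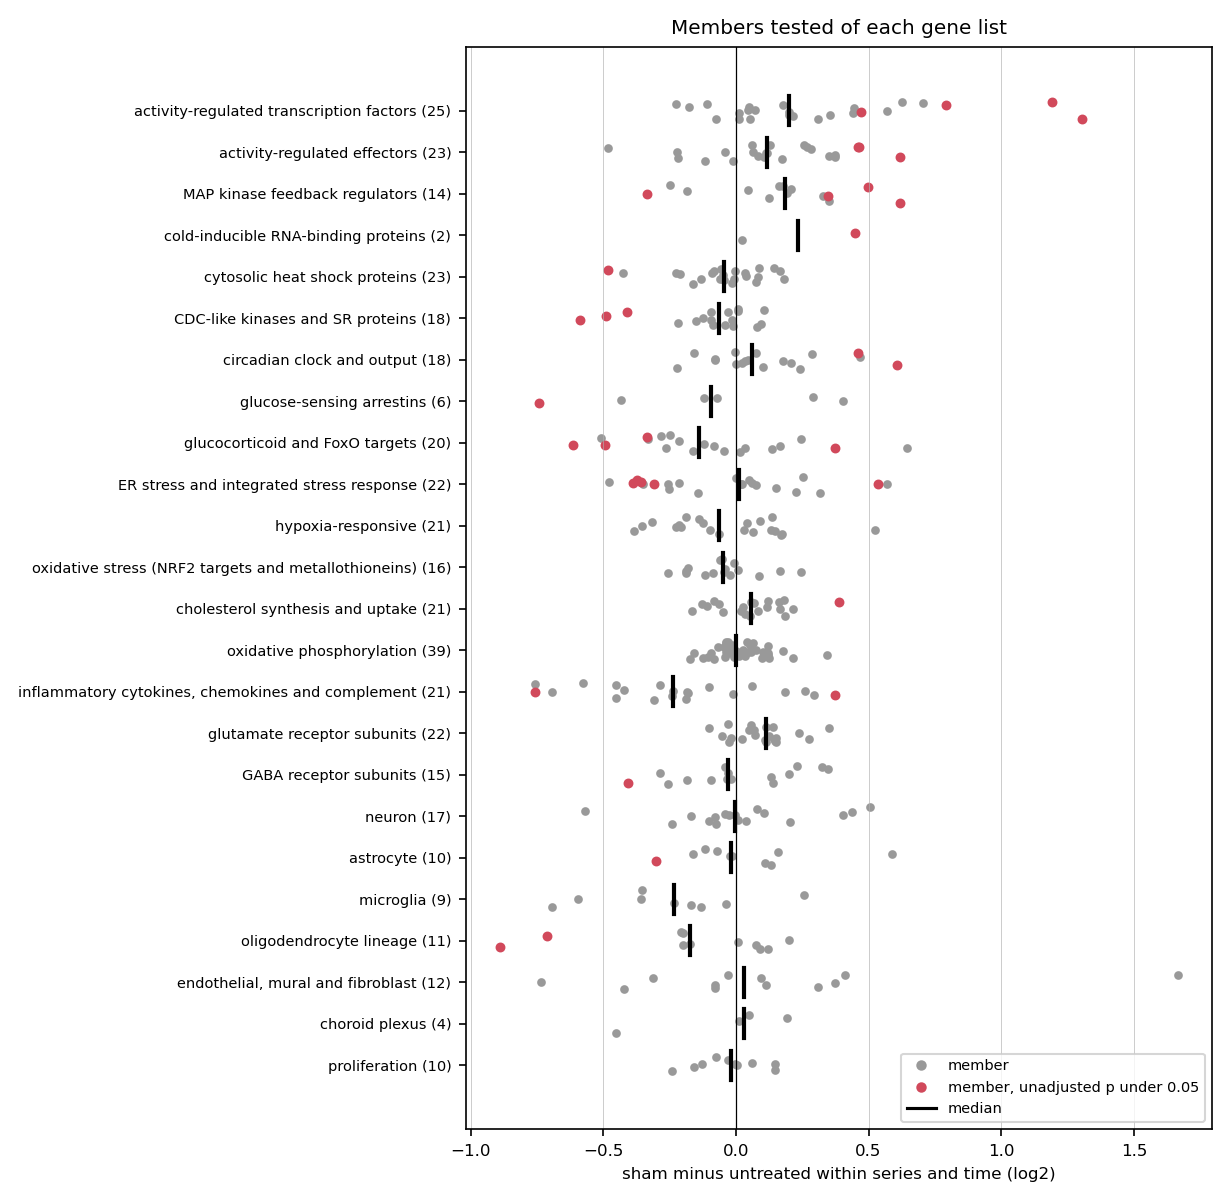
Difference of sham minus untreated within series and time (log2, horizontal axis) for each tested member of 24 gene lists, with 1 point per gene, the number tested in parentheses and a black bar for the median. Red points have an unadjusted p under 0.05, and no member passed the adjusted test. The median of the activity-regulated transcription factors is 0.20 and that of oxidative phosphorylation 0.00.

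All 17 neuron markers were well above background on all 8 arrays, and their mean level was 4.64 to 5.06 in untreated and 4.48 to 5.50 in sham cultures. All 10 astrocyte markers and all 11 of the oligodendrocyte lineage were so as well, while 4 of 9 microglia markers were well above background on every array. In these bulk cultures fewer cells of a type and less RNA per cell cannot be told apart. Mean astrocyte levels were 6.04 to 6.46 in untreated and 5.98 to 6.41 in sham cultures. Mean oligodendrocyte levels were 3.91 to 5.75 in untreated and 2.90 to 5.62 in sham cultures. The myelin gene Mbp was at 4.43 and 4.73 in untreated and 2.01 in sham of series A, but at 8.82 and 9.29 in untreated and 8.99 in sham of series C. Mean levels of the 10 proliferation markers were 4.63 to 4.83 in untreated and 2.99 to 4.81 in sham cultures, with 0 members of the same sign in both series. The part of these cells in the results above was not tested.

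Series A and series C hold separate arrays and can be set side by side. Over all 35699 probes, the difference in series A had a correlation with that in series C of 0.058 (Pearson) and −0.035 (Spearman), which is a description across probes. Both differences had the same sign in 46.6% of probes. The difference between series was tested as an added column for untreated cultures of series C. The series terms of this fit also drew on the stimulated arrays of 0 h, so it does not test sham alone. The column passed for 1 probe without a symbol (0.0028%), and 2863 probes had an unadjusted p under 0.05 (limma). A column for sham of series C instead, chosen after seeing the data, passed for 20 probes. All 63 probes that passed had the same sign in both series, which is a description, since the same arrays entered the fit that chose them.

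**Figure D4:**
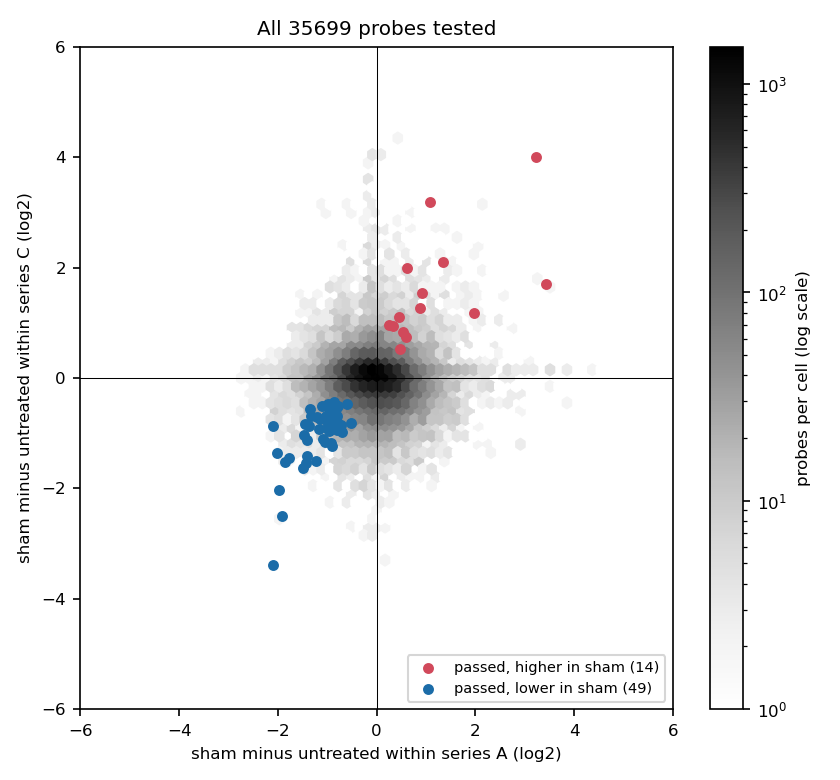
Difference of sham minus untreated (log2) within series A (horizontal axis) and within series C (vertical axis) for all 35699 probes tested, with grey shading for the number of probes per cell on a log scale. Coloured points are the 63 probes that passed, 14 higher and 49 lower in sham. The cloud of all probes shows no slope (Pearson correlation 0.058), and the coloured points lie in the quadrants of equal sign.

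Stimulated cultures of 0 h had been placed in the same incubator and shared the untreated arrays as their reference, so their values are given beside those of sham without a comparison between them. The 1 Hz group had 3 arrays, none of series A, and the iTBS group had 4. Against untreated, 11 probes passed for 1 Hz (0.0308%) and 337 for iTBS (0.944%), and the latter count was 0 without untreated replicate 1, 0 without untreated replicate 3 and 1522 without untreated replicate 4. Zfp112 had a mean level of 1.14 ± 0.12 (SD, n = 4) in untreated, 0.39 ± 0.23 (n = 4) in sham, 0.36 ± 0.20 (n = 3) in 1 Hz and 0.34 ± 0.29 (n = 4) in iTBS cultures. Cd46 had 2.02 ± 0.17, 1.25 ± 0.27, 1.25 ± 0.22 and 1.42 ± 0.27 in the same order. For Cirbp the values were 6.98 ± 0.23, 7.49 ± 0.04, 7.65 ± 0.07 and 7.57 ± 0.19, and for Egr1 they were 1.70 ± 0.33, 3.53 ± 0.48, 3.34 ± 1.11 and 2.96 ± 0.79.

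Sham cultures collected later had gone through the same session and then returned to the home incubator, and they were older than the untreated ones. Zfp112 was at 0.67 ± 0.28 (SD, n = 4) in sham at 2 h and at 1.06 ± 0.23 (n = 3), 0.91 ± 0.31 (n = 3) and 1.03 ± 0.25 (n = 3) at 8, 24 and 48 h. Hsd17b1 had a level of 0.83 ± 0.26 in sham of 0 h, of 1.32 ± 0.34 after 2 h, of 1.68 ± 0.21 after 8 h, of 1.71 ± 0.21 after 24 h and of 2.12 ± 0.45 after 48 h, with 1.86 ± 0.25 in untreated. The mean of Cirbp was 7.49 at 0 h and 7.40, 7.20, 7.03 and 6.87 at the later times, beside 6.98 in untreated. From 8 h on the means of these 3 genes lay nearer to untreated than at 0 h. These are plain means without the series, and the groups differ in series. Untreated held series A and C, sham of 8 and 24 h series B, C and D, and sham of 48 h series A, C and D. Zfp112 and Hsd17b1 were chosen for their difference at 0 h, and Cirbp was taken up here with its values at 0 h known. Such a choice favours later values nearer to untreated, and no test was made. Egr1 spread too widely for an order, with 3.45 ± 1.45 in sham of 2 h and 2.38 ± 1.24 in sham of 8 h.

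**Figure D5:**
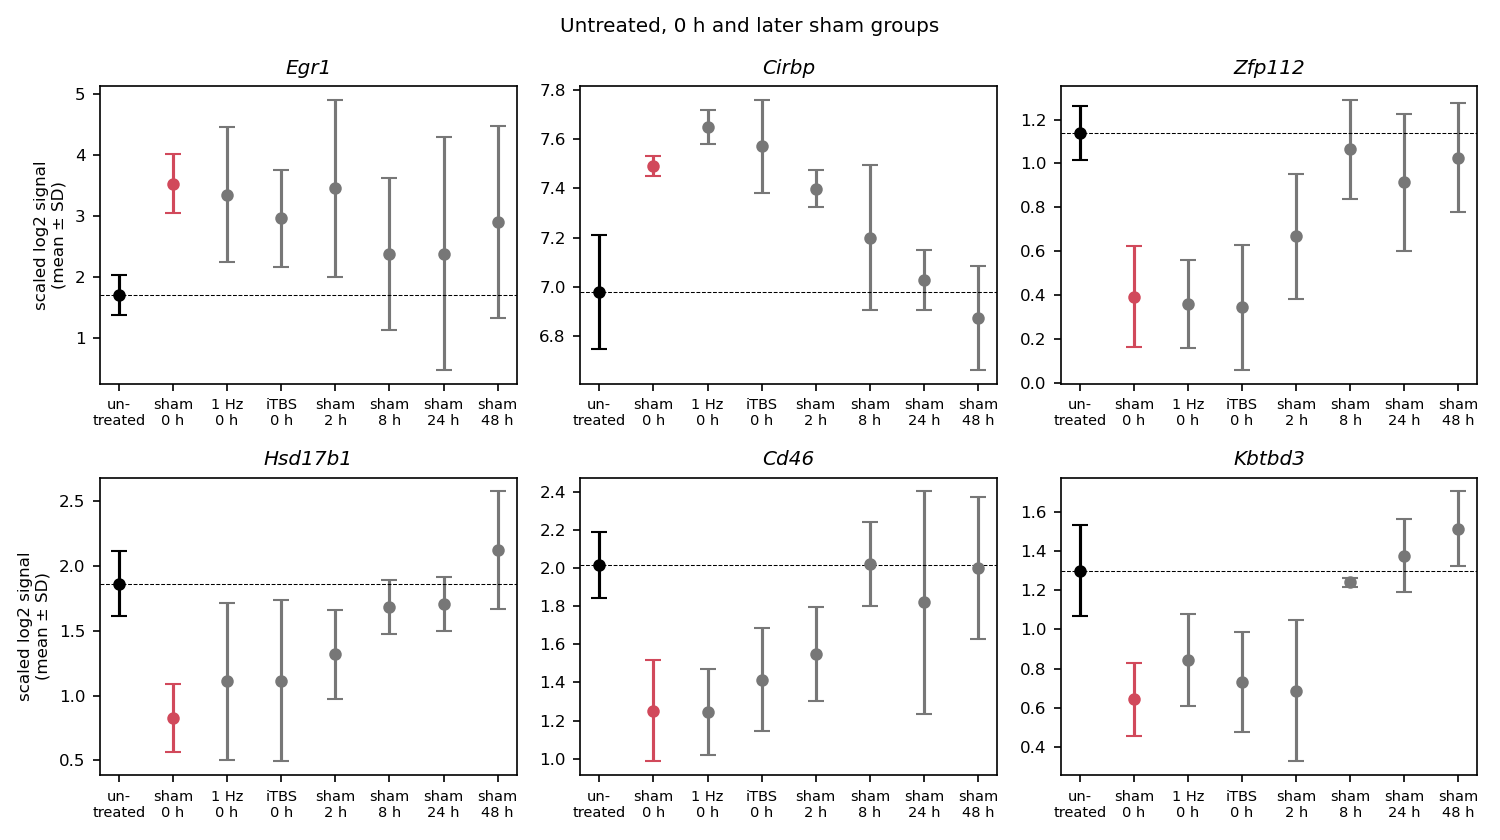
Mean ± SD of the level (scaled log2 signal, vertical axis) of 6 genes in untreated cultures (black), sham at 0 h (red) and, in grey, 1 Hz and iTBS at 0 h and sham at 2, 8, 24 and 48 h, with 3 or 4 arrays per group and a dashed line at the untreated mean. All groups are set against the same 4 untreated arrays and the genes were chosen with their sham values known, so the side of the dashed line on which the stimulated groups lie is no independent result. The sham mean of Zfp112 is 0.39 at 0 h and 1.03 at 48 h.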

How the data were processed

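Total RNA of each culture was labelled with Cy3 and hybridized to 1-colour Agilent rat arrays. The deposited scanner files hold a background-corrected processed signal per spot, an intensity on a linear scale that the authors extracted with Agilent Feature Extraction 12.0.3.1 and did not normalize between arrays. The authors also deposited a score per probe, a z-score taken within each array. Recomputed z-scores differed from it by at most 0.005, and it served as an alternative. Per the file headers the array design refers to build rn4, and symbols came from a RefSeq table of build GRCr8 by unversioned accession (46.3% of 45598 probes), so no array coordinates are given. Promoters are RefSeq windows of GRCr8.

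Log2 signals of noncontrol spots were averaged per probe without outlier spots, which left 45178 probes. As in the study's methods they were z-scored within each array, and here brought back to log2 units by a common factor of 4.06, the median SD over arrays. Array 1 Hz at 2 h replicate 2, whose grid was marked as badly placed, was left out. A probe had to be well above background on 3 or more arrays, which removed 9479 probes. Of the 35699 tested, 17732 had a symbol.

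Group means of 55 arrays in 16 groups were fitted with limma 3.58.1 in R 4.3.3, without covariate (39 residual degrees of freedom), as in the methods, and with the series nested in time (24). Both designs were planned. Sample numbers 1 to 18, 19 to 36 and 37 to 54 in the labels gave series A, B and C, and numbers with a D series D. Whether they mark separate dissections is not given in the sources used here. Tests were two-sided at an adjusted p of 0.05 over all probes. Scripts were tested on simulated data.

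Genes named were up to 10 per direction of largest difference among those that passed with signal on every array of a group and 1 sign in both series, filled to 6 by p-value, up to 4 per list, and Fos, Arc, Egr1, Npas4, Rbm3, Cirbp and Txnip. Other genes and the later sham values were named after values were seen. The lists and genes were chosen with earlier results of these data known, and no p-value was adjusted within a list. Some genes are in more than 1 list, among them Dusp1, Per1, Errfi1 and Nfkbia. Alternatives were other scalings (75th percentile, quantile, normexp with an offset of 50 on median signals), other filters, slide, replicate or series as a block, fewer arrays, and the methods' criteria. The number of arrays limits precision.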

Additional observations from a re-analysis of the deposited data

Results flagged for a closer look

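In 83 genes the spread within the untreated and the sham group was checked for an array that stood apart from the other 3 of its group, by Dixon's ratio of the gap to the range at its 95% critical value. Of 166 groups checked, 4 held such an array, and chance gives about 1 in 20. Egr1 in untreated replicate 2 was high (ratio 0.846), at a level of 2.18. Rbfox3, a marker of neuronal nuclei, was high in untreated replicate 3 (ratio 0.983). Kdm3a, a hypoxia-responsive histone demethylase gene, was high in sham replicate 2 (ratio 0.841). Mcm3, a replication gene among the proliferation markers, was low in sham replicate 4 (ratio 0.914).

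The added column for untreated cultures of series C passed for 1 probe without a symbol, A_44_P597467. The difference of sham minus untreated was −1.12 in series A, with sham at 0.39, and 0.37 in series C, with sham at 1.22. The fitted term for series C against series A was 1.47 ± 0.22 (SE, adjusted p = 0.016, limma). It also drew on the stimulated arrays of 0 h.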

How the results depend on the processing

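The count of probes that passed depended on scaling, model and single arrays. For sham against untreated within series and time (63 probes), 75th percentile scaling gave 101, normexp 119, the replicate block 29, all 56 arrays 3, slide as a block 22, series as an additive block 2, only the 0 h arrays 9 and only the 6 arrays of series A and C 0 (limma, 1927 at an unadjusted p under 0.05). Leaving out 1 array gave 13 to 81. Without covariate (1 probe), 75th percentile scaling and series as an additive block gave 2, normexp 0 (900 unadjusted), all 56 arrays 0 (319), only the 8 arrays 0 (1092), only the 6 arrays of series A and C 0 (915) and leaving out 1 array 0 to 1. The methods' criteria gave 88 (6 higher, 82 lower). They use an ANOVA and a z-test with a looser false discovery rate and cut-offs on size and level. They were applied to 45178 probes without the filter on dim probes, so the 88 is not comparable with the other counts. For 1 Hz against untreated (11), 75th percentile scaling gave 22, normexp 26, the replicate block 0 (3928 unadjusted) and leaving out 1 array 2 to 13. For iTBS (337), 75th percentile scaling, which moved the median difference of all probes by 0.15, gave 144 (118 higher, 26 lower, against 155 and 182), quantile 36, normexp 8, no filter 132, the replicate block 165 and leaving out 1 array 0 (4537 unadjusted without untreated replicate 1, 4798 without replicate 3) to 1522. For series C against A (1), 75th percentile scaling, with a shift of −0.11, gave 4, normexp 0 (2673 unadjusted), no filter 2, the replicate block 0 (1315 unadjusted), and leaving out 1 array 0 to 21. A column for sham of series C in place of untreated of series C, chosen after seeing the data, gave 20. The causes were not tested. The replicate numbers did not pair the arrays: deviations of same-numbered arrays correlated by −0.14 to 0.50, and 4 of 8 arrays correlated best with their own number.

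The alternatives were run for 14 of the genes named as passing, and these kept their direction in all of them. They were not run for Six4 or for the passing probes of Slitrk3, Kbtbd3, C1h15orf40 and Creb5. Mettl7a passed in 15 of 21 alternatives, Fam181a and Zfp458 in 14, Hsd17b1 and Cd46 in 10, Nhlrc2, Zbed5, Cfap141 and Zfp112 in 9, Zfp54 and Cel in 8 and Galnt3 in 7, and Or10h1d passed in 9 of 20 and Or7d10 in 6 of 20. Differences ranged from −1.34 to −0.53 for Cel, from −1.11 to −0.47 for Zfp458 and from −1.24 to −0.38 for Txnip, and that of Fos was as low as 0.33. Egr1 passed with normexp (difference 1.15, adjusted p = 0.019) and in none of the other 20, with differences from 1.10 to 1.83. Normexp also passed Per1, Dusp5, Bcl6 and Casp2, and Clk4, Ccng2 and Tnik passed with 75th percentile and with quantile scaling. Bcl6 passed without sham replicate 1 as well, and Clk4 and Ccng2 with normexp and without untreated replicate 4.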
